A study of Drosophila melanogaster with 2 samples.

Results

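The strongest binding site of the homeodomain protein OdsH in these larvae lay in an intron of u-shaped (ush), upstream of the start of cabut (cbt). The genes are a nested pair on chromosome arm 2L. The locus was taken as ush, cbt and 10 kb on either side of them, and every peak with its summit there was counted. It was chosen by its peak signal: it holds the peak with the highest signal of the deposited lists, so its signal, rank and number of peaks are described here and not tested. Of the 7223 peaks in the list thresholded for reproducibility, 23 had their summit in the locus. Of the 30000 peaks in the relaxed list called on both replicates pooled, 58 did. The relaxed lists of the replicates, also with 30000 peaks each, placed 60 summits there in replicate 2 and 62 in replicate 1.

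The assay was chromatin immunoprecipitation with sequencing on whole Drosophila melanogaster larvae at the wandering stage of the third instar. The animals came from the OdsH-GFP strain, a stable transgenic line in which GFP is fused to the C terminus of OdsH, and anti-GFP antibody was used for the precipitation. Both samples, biological replicates per the labels, form 1 group of 2, and the labels give no sex for the animals. The promoter that drives the fusion is not given in the sources used here. In whole larvae, binding in few cells and weak binding in many cells cannot be told apart, and no tissue can be assigned to a peak. The signal of a peak is the value of the authors' caller on a scale that is not stated, so it serves here to rank and describe peaks within a list, and pooled and replicate signals are not on a common scale. Read numbers are not among the values used here, which leaves the depth unknown. A control library was not analysed here.

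OdsH is a DNA-binding protein of the homeodomain class, whose members commonly recognise sequences around a TAAT core. In crosses between species of this group, the gene is best known for sterility of hybrid males. The ush gene encodes a zinc finger cofactor of the Friend of GATA family. Its product binds GATA factors such as Pannier and Serpent and takes part in the patterning of sensory bristles, in heart formation and in the choice of blood cell fates. The cbt gene encodes a zinc finger transcription factor related to the Sp and KLF families. It is known from dorsal closure of the embryo, where it acts with the JNK pathway, and from the response to dietary sugar downstream of Mondo and its Mlx partner.

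In the Ensembl BDGP6 annotation, ush (FBgn0003963) occupies chr2L:476220-540560 on the plus strand, a length of 64341 bp, with 5 transcripts from 4 start sites. The cbt gene (FBgn0043364) occupies chr2L:476446-479688 on the minus strand, a length of 3243 bp, with 3 transcripts from 1 start site. It lies whole within the first intron of ush and is read in the opposite direction, so cbt and the ush transcripts from the first start run toward each other. Any summit within the cbt gene or upstream of it is therefore also inside ush. The locus as a whole ran over chr2L:466220-550560, which is 84341 bp or 0.359% of the arm. It held 23 of the 1364 thresholded summits of 2L, or 1.69%. The density was 2.73 thresholded summits per 10 kb in the locus and 0.540 per 10 kb over all chromosome arms.

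The sequences at the 4 locus summits with a pooled signal above 500 are shown because they carry most of the signal of the locus. They were read from the Release 6 (dm6) reference, plus strand, 5′ to 3′, with 100 bases on either side of the strongest summit and 50 bases on either side of the others. Capitals mark TAAT or its reverse complement ATTA.
chr2L:480961-481161, upstream of cbt, rank 1: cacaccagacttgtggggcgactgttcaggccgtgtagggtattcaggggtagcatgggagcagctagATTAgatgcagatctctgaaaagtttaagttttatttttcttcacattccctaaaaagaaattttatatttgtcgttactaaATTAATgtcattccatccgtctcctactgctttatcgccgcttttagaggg
chr2L:479993-480093, upstream of cbt, rank 155: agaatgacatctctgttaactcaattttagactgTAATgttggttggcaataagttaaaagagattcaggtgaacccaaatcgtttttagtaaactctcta
chr2L:530366-530466, ush intron, rank 265: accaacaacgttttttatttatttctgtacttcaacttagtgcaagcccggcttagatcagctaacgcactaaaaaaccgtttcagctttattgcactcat
chr2L:485826-485926, ush intron, rank 270: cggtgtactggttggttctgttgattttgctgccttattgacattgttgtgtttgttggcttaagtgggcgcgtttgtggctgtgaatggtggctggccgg
The longest of these sequences holds 3 matches to TAAT, beginning 32 bases before the summit and 50 and 52 bases after it, the last pair overlapping. The sequence at the summit nearer to the cbt start holds 1 match. The windows of ranks 265 and 270 hold 0 matches. All 4 summits lie in introns of ush, and those of ranks 1 and 155 are also upstream of cbt.

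The strongest peak covered chr2L:480566-481381 and had its summit at chr2L:481061, 1373 bp upstream of the cbt start and 4841 bp downstream of the first ush start. Replicate 2 gave it a signal of 2691, replicate 1 one of 2260 and the pooled list one of 4906, each of rank 1. The replicates placed the summit within 5 bp of each other, at chr2L:481051 in replicate 2 and chr2L:481046 in replicate 1. The peak with the next highest signal anywhere in the genome, near CG11050 on the same arm, had 2235 in replicate 2, 1893 in replicate 1 and 4058 when pooled. The signal at the locus was thus 1.21 times that of the next peak in the pooled list, 1.20 times in replicate 2 and 1.19 times in replicate 1. Both replicates gave this order, and the margin was small.

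The strongest peak was also among the broadest. It was 816 bp wide, the 3rd widest of all thresholded peaks, of which the widest had 817 bp. A single width of 444 bp was shared by 17 of the 23 locus peaks and by 75.2% of all thresholded peaks. A further relaxed summit lay 199 bp away inside the same interval, at chr2L:481260, with a signal of 91.5 in replicate 1 and 33.3 in the pooled list. Replicate 2 listed no second summit in the interval.

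**Figure D1:**
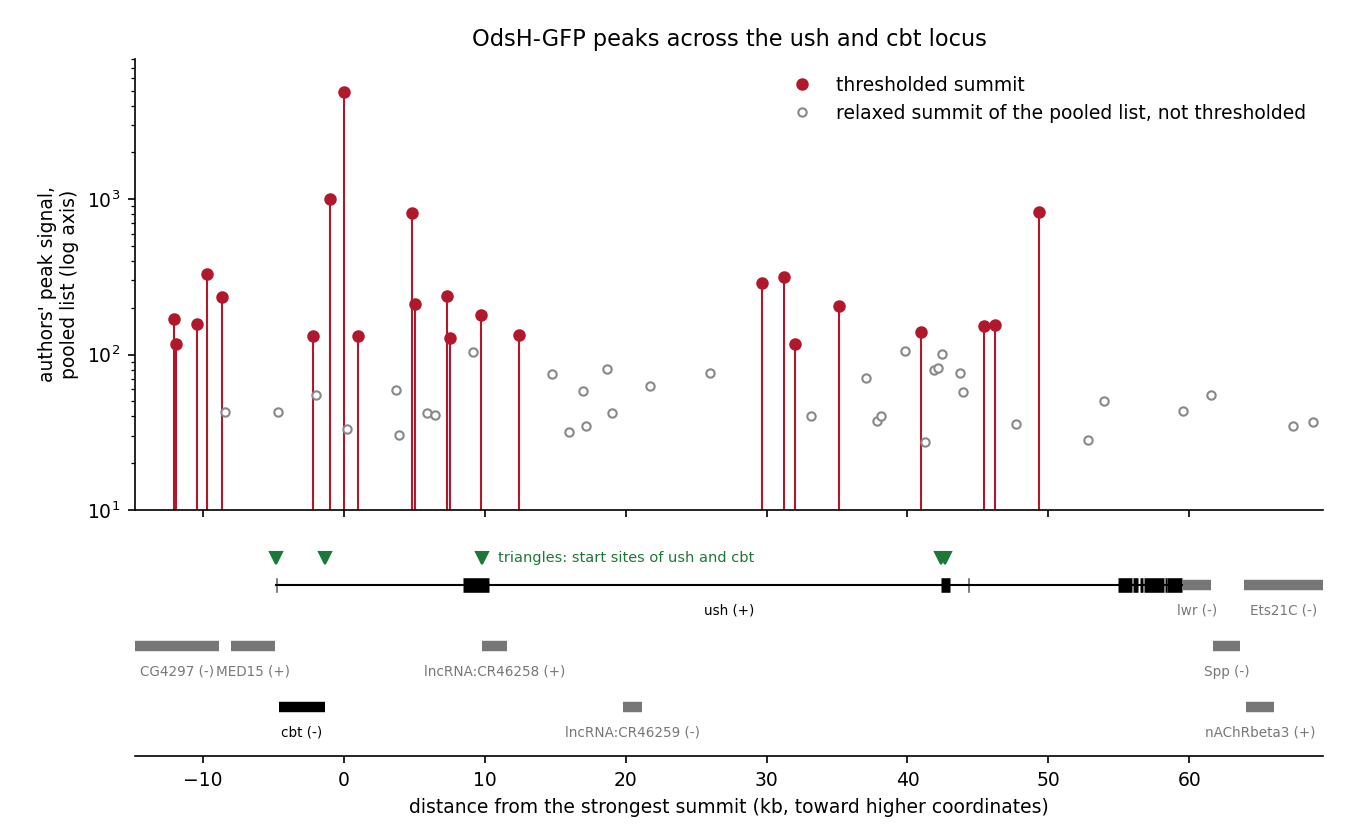
Pooled peak signal (log axis) against distance from the strongest summit in kb, with gene models below: thick bars are ush exons and whole bodies of the other genes, triangles the start sites of ush and cbt, and genes that run past the window are drawn to its edge. The strongest summit has a signal of 4906, the next 3 lie between 817 and 1001, and no thresholded summit falls in the last exons of ush or beyond its end.

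The locus had 1 dominant site and a small second tier. The summit at chr2L:480043, 355 bp upstream of the cbt start, had a pooled signal of 1001 and rank 155, with 594 in replicate 2 and 448 in replicate 1. The summit at chr2L:530416, in an intron near the end of ush, had 826 and rank 265, with 454 in replicate 2 and 363 in replicate 1. The summit at chr2L:485876, in the first intron of ush, had 817 and rank 270, with 445 in replicate 2 and 360 in replicate 1. All 3 kept this order in both replicates, although the last pair differed by less than the replicates did from each other. The strongest summit exceeded the second of the locus 4.90 times.

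The other 19 thresholded summits of the locus had a pooled signal between 117 and 329. The median over the locus was 181, against 188 over all thresholded peaks, and 12 of the 23 lay below that overall median. Thus 1 locus summit ranked in the top 100 of the whole list, 4 in the top 500 and the same number in the top 1000. The weakest thresholded summit of the locus, at chr2L:513046, had a signal of 117. The strongest relaxed summit of the locus outside the thresholded list, at chr2L:520872, had 105 and rank 7530. The lowest signal of the thresholded list was 109.

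**Figure D2:**
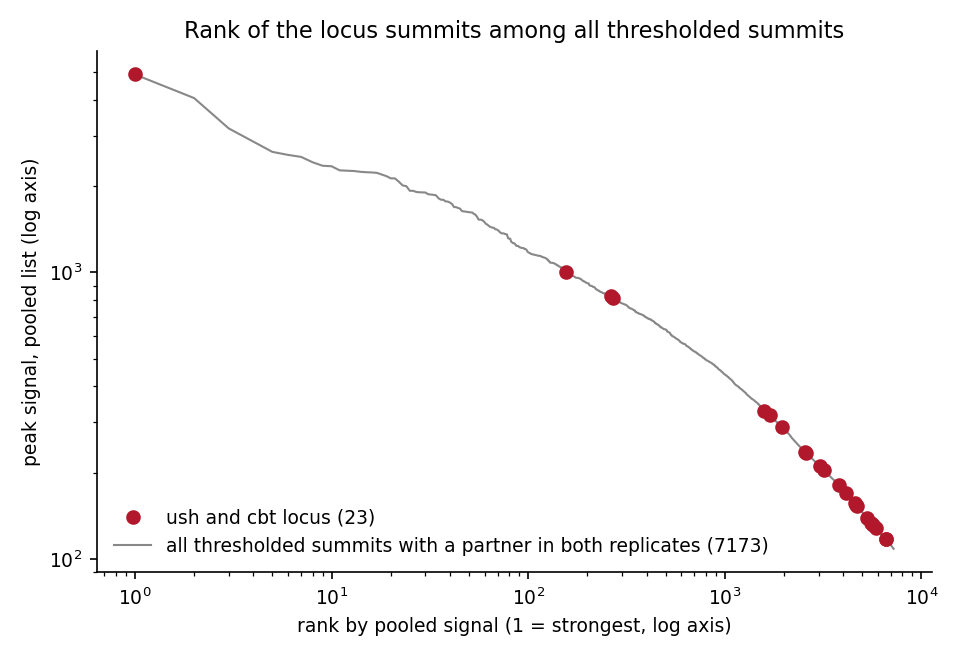
Pooled peak signal against rank by that signal, both on log axes; the line is all thresholded summits with a partner in both replicates (7173) and the points are the 23 in the locus. The first point stands at rank 1, the next 3 at ranks 155 to 270, and the remaining 19 at ranks 1591 and beyond.

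The start of cbt stood beside the strongest binding of the locus. Upstream of it lay the summits 355 bp and 1373 bp away, the second and the first of the locus by signal. Within the cbt body there was 1 thresholded summit, at chr2L:478891, 797 bp downstream of the start in an untranslated part of an exon. It had a pooled signal of 132 and rank 5681, with 79.3 in replicate 2 and 55.8 in replicate 1. The 1284 coding bases of cbt, in 2 blocks, held 0 thresholded, 0 pooled relaxed and 0 replicate 2 summits and 1 relaxed summit of replicate 1.

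The 4 start sites of ush differed in the signal beside them. The start of ush-RB, at chr2L:490835, was the only one with a thresholded summit within 500 bp. That summit lay 30 bp upstream, with a pooled signal of 181 and rank 3790, 101.5 in replicate 2 and 93.4 in replicate 1. The long noncoding RNA gene lncRNA:CR46258 (FBgn0267991) is annotated from the same base, so the summit cannot be assigned to one of these starts.

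The first start, at chr2L:476220, serves ush-RD and ush-RE and stands next to the end of MED15. Within 500 bp it had a relaxed summit in the pooled list, 138 bp downstream, with a signal of 42.7 and rank 19630. Replicate 1 listed 2 there, the stronger with 28.2 and the other with 22.1, and replicate 2 listed none within that distance. Its nearest thresholded summit was the one in cbt, 2671 bp downstream.

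The starts of ush-RA and ush-RC, at chr2L:523466 and chr2L:523736, had relaxed summits alone within 500 bp. The nearest to the ush-RA start lay 69 bp downstream in the pooled list, with a signal of 100.2 and rank 7936, past the end of the thresholded list. In replicate 2 it had a signal of 57.2, 81 bp downstream, and in replicate 1 a signal of 63.2, 9 bp upstream. The same pooled summit stood upstream of the ush-RC start, still within 500 bp of it. Their nearest thresholded summit, at chr2L:522054, lay 1412 bp and 1682 bp upstream and had a pooled signal of 139.

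**Figure D3:**
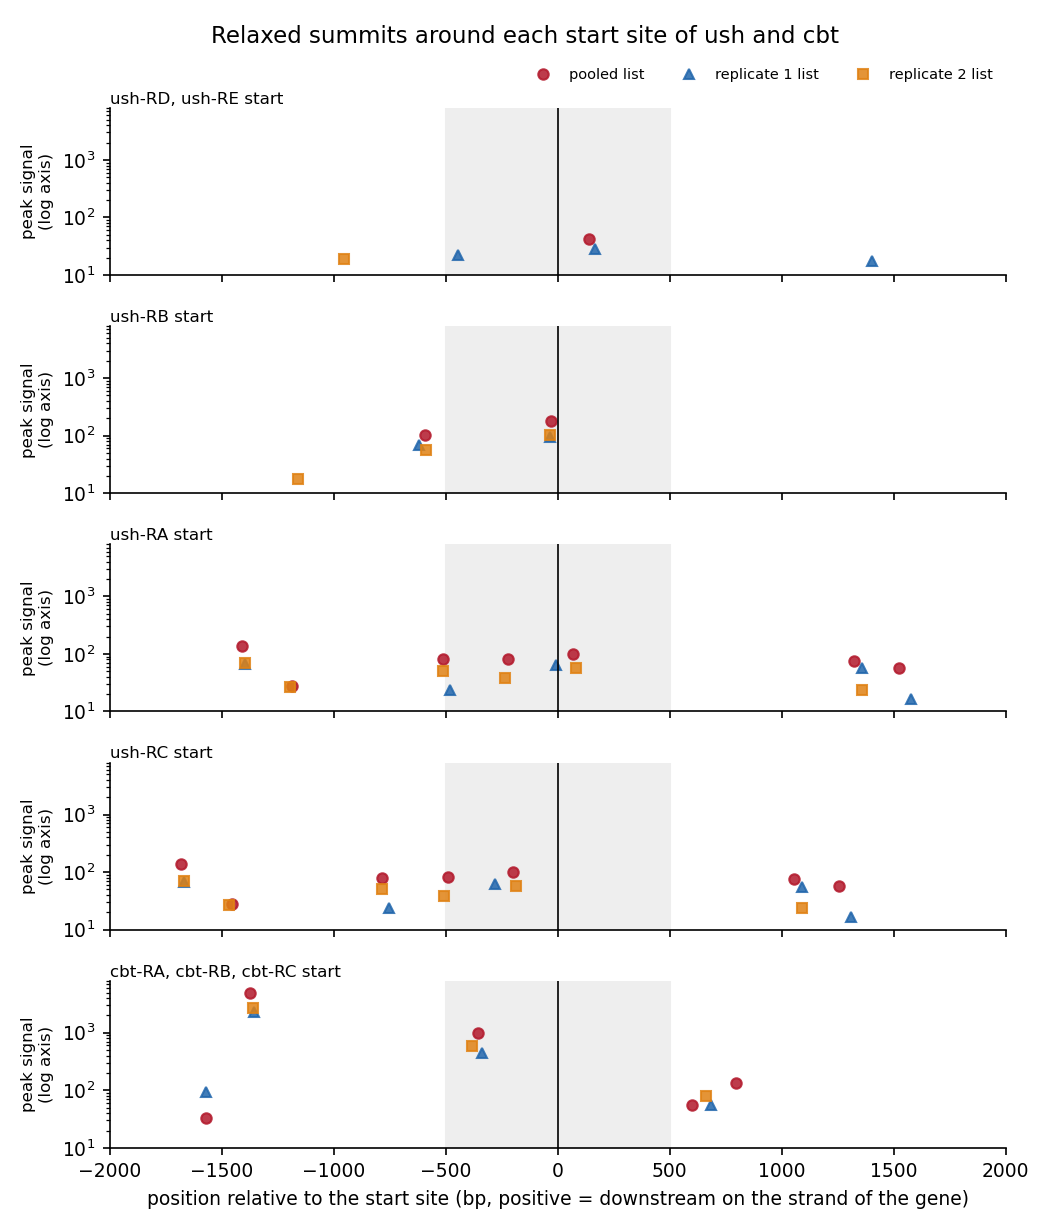
Relaxed summits of the pooled, replicate 1 and replicate 2 lists within 2 kb of each start site, by position on the strand of the gene (bp) and peak signal (log axis), with the 500 bp on either side shaded. The cbt panel holds the summits at 355 and 1373 bp upstream with signals of 1001 and 4906 in the pooled list, and the first ush start has no pooled summit above 42.7 in its shaded band.

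Most of the locus peaks were intronic. Placed in the first class that applied, 4 of the 23 thresholded summits (17.4%) were within 500 bp of any annotated start site, against 43.4% of all thresholded summits. A further 18 lay in introns, 15 of them inside ush, 1 lay in an untranslated region, and 0 lay in coding exons or between genes. Introns of ush fill much of the locus, with blocks of 13185, 32107 and 10586 bp among its 84341 bp. The shares of these other classes over all thresholded summits are not given here. The count within 500 bp included 2 at starts of CG4297, 1 at cbt and 1 at ush-RB.

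Along ush the summits were uneven. The first intron block, 13185 bp long and holding cbt, had 8 thresholded summits, or 6.07 per 10 kb. The long second intron block of 32107 bp had 6, or 1.87 per 10 kb, the strongest with a signal of 318. The fourth intron block of 10586 bp had 3, or 2.83 per 10 kb, among them the summit with 826. No thresholded summit lay beyond that block up to the end of ush or in the 10 kb after it, where the strongest relaxed pooled summit had 54.8. The 3679 coding bases of ush, in 9 blocks, held 0 thresholded, 0 pooled relaxed and 0 replicate 2 summits and 2 relaxed summits of replicate 1.

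The widest gap between neighbouring thresholded summits of the locus was 17267 bp, inside the second intron block, and the narrowest was 200 bp. In 3 places neighbouring summits lay within 300 bp. The pair at chr2L:485876 and chr2L:486077 had pooled signals of 817 and 210, and the pair at chr2L:488358 and chr2L:488558 had 237 and 129. The remaining pair, at chr2L:468955 and chr2L:469165 below ush, had 169 and 117.

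Of the flanking genes below ush, CG4297 shared in the binding, and MED15, next to ush, held 0 thresholded summits in its body. The genes above ush did not reach the thresholded list within the locus. CG4297 (FBgn0031258), on the minus strand, held 4 thresholded summits in its body. The summit at chr2L:471363, 192 bp downstream of one of its starts, had a pooled signal of 329 and rank 1591, with 207 in replicate 2 and 135 in replicate 1. The summit at chr2L:472400, 200 bp upstream of the start, had 235, with 137 in replicate 2 and 93.9 in replicate 1. That summit was also the strongest within 1 kb of the start of MED15, which encodes a subunit of the Mediator complex.

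The noncoding RNA gene lncRNA:CR46259 had no thresholded summit within 1 kb of its start, and its strongest relaxed pooled summit there had a signal of 63.1. The same held for lwr, which encodes a SUMO-conjugating enzyme, with 54.8. Spp, the signal peptide peptidase, and nAChRbeta3, a nicotinic acetylcholine receptor subunit, had none within 1 kb of a start in the pooled list. Replicate 2 alone listed a summit at the Spp start with 18.7 (rank 23909) and one 147 bp upstream of the nAChRbeta3 start with 15.5 (rank 28494). Ets21C, an ETS-domain transcription factor gene that crosses the upper edge, had its thresholded summit at chr2L:552620, just outside the locus, with a pooled signal of 171. The lower edge fell in a wider gap, with the outermost member at chr2L:468955, 7265 bp from ush, and the next thresholded summit at chr2L:452264, 23956 bp away.

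All 23 thresholded summits of the locus had a relaxed summit within 200 bp in both replicates, as did 99.3% of all thresholded summits. The thresholded list was made from these replicates, so the count describes the list. Taking the nearest replicate summit, 18 of the 23 ranked within the first 7223 of both replicate lists. The same count over all thresholded summits is not given here, so 18 of 23 is not read as high or low. The log2 ratio of replicate 2 to replicate 1 was 0.25 at the strongest summit. Over the locus it had a median of 0.32 and an SD of 0.38, against a median of 0.26 and an SD of 0.47 over the 7173 thresholded summits with a partner in both. With the strongest partner within 200 bp in place of the nearest, the SD was 0.72 over the locus and 0.45 over all thresholded summits, so which of the spreads is the wider depends on the pairing. By the nearest partner, replicate 2 was the higher at 20 of the 23 (87.0%), against 77.2% of all thresholded summits.

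The lowest ratio, -0.53, was at chr2L:482023, with 55.6 in replicate 2 and 80.1 in replicate 1. The highest, 1.23, was at chr2L:493489, with 83.7 in replicate 2 and 35.7 in replicate 1. Both are weak summits, with pooled signals of 133 and 134. The rank order of the 23 summits had a Spearman's rho of 0.85 between the replicates, and the 19 with a pooled signal below 500 had 0.74. With the strongest partner within 200 bp in place of the nearest, these were 0.70 and 0.48. These correlations are across neighbouring summits of the same libraries and are given as a description.

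**Figure D4:**
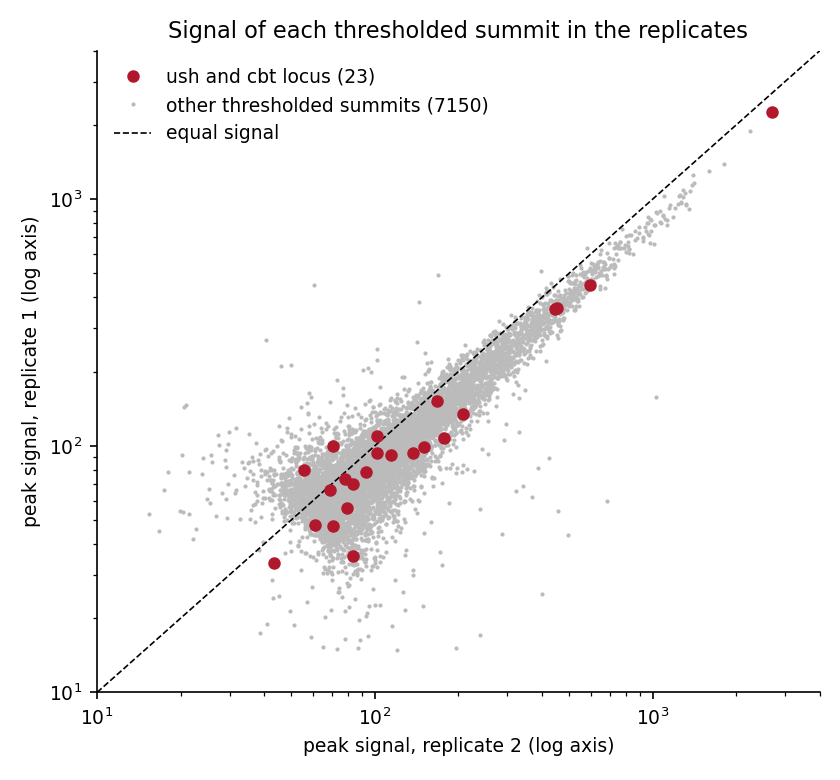
Signal of the nearest relaxed summit in replicate 2 (x axis) and replicate 1 (y axis), both on log axes, for the 23 locus summits and the other 7150 thresholded summits with a partner in both; the dashed line marks equal signal. The strongest locus summit, at 2691 and 2260, stands beyond all others, and 20 of the 23 points lie below the line.

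The relaxed lists added weak summits. Of the 58 pooled relaxed summits, 35 were not in the thresholded list, and 30 of these were inside ush. A summit within 200 bp was listed by both replicates for 19 of the 35, by replicate 2 alone for 8 and by replicate 1 alone for 8. That summit could also be the partner of a neighbouring thresholded summit. The same shares outside the locus are not given here, so these counts are not read as a trait of the locus. All 58, the 23 thresholded ones among them, had a median signal of 78.0, against 56.0 over the whole pooled list. The 32 that lay more than 200 bp from a thresholded summit had a median of 46.7. Since the thresholded peaks are the strongest pooled peaks, the 35 left had to be weak.

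The lists deposited for the dm3 build were compared without conversion of coordinates. They come from the same replicates, so likeness between the builds describes the lists and adds no support. The strongest dm3 peak was also on 2L, with a signal of 4925 and rank 1, and was 1.21 times the next. Measured from the strongest summit, 23 of the 23 thresholded summits had a dm3 counterpart within 20 bp of the same spacing, and so did 50 of the 58 pooled relaxed summits, 59 of the 60 of replicate 2 and 62 of the 62 of replicate 1. In the Release 6 sequence, all stretches of 36 bases within the 23 locus peaks occurred once on the 7 chromosome arms searched.

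The number of summits at ush was high for a gene of its length. With 10 kb on either side, ush had 23 thresholded summits, and 3 of the 13945 protein-coding genes of the 6 arms with peaks, ush included, had that many or more. Without replicate 2, where ush also had 23, there were 5 genes with at least as many as ush. Without replicate 1, where ush had 21, there were 4. With 5 kb on either side, where ush had 20 summits, there were 7. At 10 kb with both replicates, the others were sbb, a nuclear protein gene known as scribbler, with 31, and kirre, a gene of myoblast fusion, with 27. Inside the gene body ush had 18, and 7 genes had that many or more. These were sbb and kirre with 25 each, Tet, a DNA demethylase family gene, with 21, shn, a zinc finger gene of Dpp signalling, with 20, CG1677 and Eip75B with 19 each, and ush. The 167 other genes from 20% shorter to 25% longer than ush had a median of 1 in the body, and 2 of them had 18 or more.

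The cbt gene had 13 thresholded summits with 10 kb on either side, all of them among the 23 of the locus. Of the 13945 genes, 40 had 13 or more. The 1823 genes of similar length had a median of 2, and 0 of them reached 13. Inside its own body cbt had 1 summit, and 15.8% of coding genes had 1 or more.

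**Figure D5:**
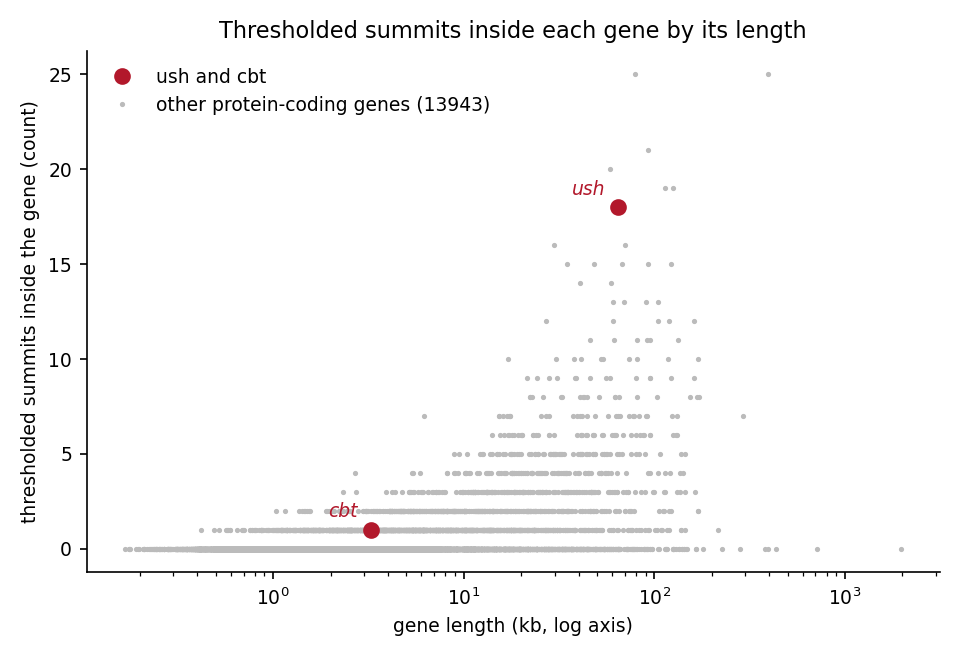
Thresholded summits inside each protein-coding gene against gene length in kb (log axis), with ush and cbt marked among 13943 others. The ush gene stands at 18 summits for 64341 bp, and cbt at 1 summit for 3243 bp.

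Other genes were ranked by how close they came to ush and to cbt in 4 values of the gene with 10 kb on either side, taken on the log2 scale: the strongest signal in the pooled, replicate 2 and replicate 1 lists and the number of thresholded summits. Among 12256 genes, the closest to ush was Shal, a potassium channel gene, at a distance of 1.93, with a strongest pooled signal of 3180 and 7 summits. It was followed by l(3)neo38 at 2.01, Eip75B at 2.15, CG32486 at 2.17 and osa at 2.19. Eip75B, which encodes an ecdysone-induced nuclear receptor, had 22 summits and a strongest signal of 2072. The osa gene, which encodes a subunit of a SWI/SNF chromatin remodelling complex, had 12 and 2196.

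The closest to cbt were Shal at 1.36, l(3)neo38 at 1.71, CG32486 at 1.83, CG11050 at 1.87 and CG1271 at 1.94. The strongest peak within 10 kb of Shal is the one nearest to CG14100, and CG32486 and CG1271 share a strongest peak of 2424.

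The 5 strongest thresholded summits outside the locus all lay nearer to a coding start than the strongest locus summit did. The summit near CG14100 lay 87 bp upstream of its nearest coding start, with 3180. That near CG1888 lay 228 bp upstream with 2860, that near Ugalt, a UDP-galactose transporter gene, 44 bp upstream with 2634, and that near gish, a casein kinase gene, 157 bp upstream with 2571. The summit near CG11050, with 4058, lay 1026 bp downstream of the start. The strongest locus summit, 1373 bp from the cbt start, lay outside the 500 bp range of any annotated start. By coding starts alone, the summit near CG11050 also lay outside that range and the other 4 lay inside it. Of all thresholded summits, 43.4% lay within that range of an annotated start.

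The genes around ush and cbt were described with a common rule, a thresholded summit within 1 kb of a start site, which 28% of 13968 protein-coding genes met, the 23 on Y now included. Of the 5 GATA factor genes, possible partners of the Ush protein, 1 was bound by this rule. That was grn, with a summit 196 bp upstream and a pooled signal of 151. With either replicate left out, 2 were bound. Neither pnr nor srp, the partners best known for Ush, was bound, and each had 0 thresholded summits in its body.

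Of 10 genes for Ush cofactors or genes of the bristle, heart and blood fates in which Ush acts, 2 were bound. That is 20%, against 28% of all coding genes. The heart homeodomain gene tin had a summit 188 bp upstream, with a pooled signal of 834 and rank 256, 447 in replicate 2 and 391 in replicate 1. CtBP, a corepressor gene, had one 809 bp downstream with 233. Mi-2, a chromatin remodeller gene, was not bound at a start but held 6 summits in its body, the strongest with 1279. Of the other unbound genes of this list, tup and dpp held 2 each, lz held 1 and the rest 0. The share of all coding genes with as many in the body as Mi-2 is not given here.

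Of the 10 genes of the Sp and KLF family, 3 (30%) were bound, cbt itself among them, against 28% of all coding genes. The others were CG3065, with a summit 160 bp upstream and a pooled signal of 188, and dar1, a gene of dendrite growth, with one 51 bp upstream and 124. Among the unbound genes, luna and CG42741 held 5 summits each in the body.

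Of 9 genes of sugar sensing around cbt, 6 (66.7%) were bound, against 28% of all coding genes. The gene bigmax, which encodes the Mlx partner of Mondo, had a summit 158 bp upstream with a pooled signal of 272, 170 in replicate 2 and 102 in replicate 1. FASN1, a fatty acid synthase gene, had one 293 bp upstream with 247, the kinase gene Sik3 one 231 bp downstream with 234, and ACC, the acetyl-CoA carboxylase gene, one 684 bp upstream with 169. Mondo itself was not bound. Counting the 3611 strongest thresholded summits alone left 3 of these genes bound, against 16.2% of all coding genes.

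Of 10 genes of the JNK pathway of dorsal closure, 6 (60%) were bound, against 28% of all coding genes. Mkk4, a kinase gene, had the strongest, 166 bp upstream, with a pooled signal of 1080 and rank 132, 645 in replicate 2 and 433 in replicate 1. The phosphatase gene puc had a summit 9 bp upstream with 211, and 10 summits in its body, the strongest with 658. The Fos gene kay had one 79 bp downstream with 197, and 9 summits in its body. The TNF gene egr had a summit 272 bp upstream with 195. The share of all coding genes with as many summits in the body as puc or kay is not given here. The kinase genes bsk and hep were not bound. These lists hold few genes and were chosen with earlier results of these data known. No test was made on them, and their bound shares are given only as a description.

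The base composition of the locus summits was described in windows that reach 50 bp to either side of the summit. The strongest window was 70.3% A and T, a share that 38.6% of all thresholded windows reached. The locus had a median of 62.4% (44.6 to 75.2), against 67.3% over all thresholded windows. TAAT occurred in 17 of the 23 locus windows (73.9%), against 75.0% of all thresholded windows. The strongest window held 1 match, the locus a median of 1 and a maximum of 6, and all thresholded windows a median of 2.

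The other motifs were searched on both strands in the same windows, and shorter ones can lie within longer ones. TAATTA and TAATTG were in 1 locus window each (4.35%), against 9.72% and 9.93% of all thresholded windows. GATAA, a core of GATA sites, was in 5 (21.7%), against 24.4%. CGATA was in 1 (4.35%), against 13.9%, and the longer TATCGATA in 0, against 1.11%. CACCC and GGGCGG, which Sp and KLF proteins can bind, were in 2 (8.70%) and 1 (4.35%), against 7.42% and 1.48%. TATAAA was in 2 (8.70%), against 21.6%, and 1 of these was the strongest window.

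GAGAG, the core of GAGA factor sites, was in 5 locus windows (21.7%), against 11.5% of all thresholded windows, and 1 of them was the window upstream of cbt with rank 155. With 25 bp on either side of the summit it was in 1 locus window (4.35%), against 5.63% of all, and with 100 bp in 8 (34.8%), against 24.3%, so the excess depends on the width. CACGTG, an E-box that Mondo and Mlx can bind, was in 0 of the 23, against 0.665%. The AP-1 sequence TGANTCA was in 0, against 2.53%. AGGTCA, which nuclear receptors can bind, was also in 0, against 1.84%. A match is only a string of letters in the reference, and with 23 windows a difference of a few windows moves these shares by several points.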

How the data were processed

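The authors deposited narrowPeak files: a relaxed list for each replicate, another on both replicates pooled, and a list thresholded on the irreproducible discovery rate. The aligner and peak caller, not given in the sources used here, cannot be named. Each deposited signal has no stated scale. The deposited -log10 q-value reached a ceiling of 4.12, shared by 21 of the 23 locus peaks and 90.5% of all thresholded peaks, so ranks used the signal. The 7223 thresholded peaks were the 7223 strongest pooled peaks.

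Summits were computed as peak start plus offset, counted from 1, in dm6, and set against Ensembl release 115 and the Release 6 sequence. Replicate partners lay within 200 bp; values are those of the nearest partner, a choice made after the data were examined, and for the next strongest peaks and the list genes those of the strongest partner. Named genes were those of the locus, the 5 most like ush and cbt, the 5 next strongest, and up to 4 bound members of each of 5 lists; genes with as many summits as ush, Mi-2 and unbound list members were added after their values were seen. The members and lists were chosen with earlier results of these data known. With 1 group and a locus chosen by its signal, no test was made. Python 3.11.15, numpy 2.4.6, scipy 1.17.1 and matplotlib 3.10.9 were used. Functions were tested on simulated data, where 100 of 100 planted genes were called bound.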

Additional observations from a re-analysis of the deposited data

How the results depend on the processing

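The strongest summit ranked 1 in both replicate lists and in the dm3 lists of the same replicates. Its rank by q-value carries no information, because most peaks share the ceiling. Its margin over the next peak was 1.20 with replicate 1 left out and 1.19 with replicate 2 left out. Its replicate ratio did not change with other pairing distances. Of 69 alternatives of the main results, 52 stayed within 1.5 times the reported count or within the replicate spread, and 17 moved. The 52 include the rank by q-value, which could not move, and the dm3 lists of the same replicates. The tally is therefore not read as a measure of stability. The margin with replicate 2 left out was among the 17. Of the 3611 strongest thresholded summits, 11 lay in the locus. Within 250 bp, 1 summit lay at a ush or cbt start. The share of coding genes with at least as many summits as ush was 0.0502% for gene bodies and for 5 kb, and 0.0287% to 0.0359% with a replicate left out. GATA factor genes bound were 3 within 2 kb (with 34.0% of all coding genes bound), 3 in the gene or within 5 kb (56.1% of all), 0 with the 3611 strongest summits (16.2% of all), and 2 with either replicate left out. Genes of Ush partners and fates bound were 1 within 500 bp (24.1% of all) and 7 in the gene or within 5 kb. Sp and KLF genes bound were 7 in the gene or within 5 kb and 1 with the 3611 strongest, and sugar-sensing genes 3 with the 3611 strongest. TAAT was in 11 locus windows of 51 bp. Of 24 alternatives for the other motifs, 12 moved. The cause was not tested. Pairing each summit with the strongest partner within 200 bp, in place of the nearest, changed 3 pairs and gave a rho of 0.70 and an SD of 0.72 over the locus, against 0.45 over all thresholded summits, which reverses the order of the spreads. No paired analysis was possible because there was 1 group. Unknown depth, whole animals and the control library, not analysed here, limit all values.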
